A study of Rattus norvegicus with 40 samples.

Results

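The proteasome subunit genes were taken as all genes with a probe set whose single platform symbol begins with Psma, Psmb, Psmc, Psmd or Psme. The rule found 49 probe sets of 27 genes, out of 4736 genes that the array names with 1 symbol. Of these, 44 probe sets were bright enough to be tested and they covered all 27 genes; the 5 left out as dim were further probe sets of Psma1, Psma5, Psma6, Psmd1 and Psme1. The immunoproteasome was represented by 4 genes (Psmb8, Psmb9, Psme1 and Psme2) with 6 tested probe sets, and the constitutive proteasome by 22 genes with 37. Psme4, which encodes a separate proteasome activator, made up the remainder with 1 probe set. Psmb10 and Psmb7 had no probe set under the rule, and Psmb6 was found only among the 5 proteasome probe sets that carry several symbols, so none of these genes was analysed here.

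The proteasome is the barrel-shaped protease that degrades ubiquitin-tagged proteins. Its 20S core stacks outer rings of alpha subunits (Psma genes) on inner rings of beta subunits (Psmb genes), of which Psmb5, Psmb6 and Psmb7 carry the catalytic sites. The 19S cap, built from ATPases (Psmc genes) and non-ATPase subunits (Psmd genes), recognises and unfolds the substrate. In cells exposed to interferon, and constitutively in many leukocytes, Psmb8, Psmb9 and Psmb10 replace the standard catalytic subunits Psmb5, Psmb6 and Psmb7, and the activator PA28, made of Psme1 and Psme2, can cap the core. This immunoproteasome is known for cutting peptides that MHC class I molecules present.

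The arteries came from male Wistar-Kyoto rats aged 3 months, and 40 Affymetrix U34A arrays, each with RNA pooled from the vessels of 3 rats, fell into 11 groups. In the operated rats the left common carotid artery was injured by a balloon catheter, and either plain Pluronic F-127 gel or the same gel holding recombinant tissue-type plasminogen activator (tPA, 20 nmol/kg) was laid on its outer side. The left artery and the right artery, which was neither injured nor treated, were taken at day 1 or day 4, with 3 arrays in each of these 8 groups (left gel, left tPA, right gel and right tPA at each day). Controls were sham-operated rats at day 1 (4 arrays) and day 4 (6 arrays) and intact rats (6 arrays). The labels do not say whether left and right arrays of the same number hold the same 3 rats, or which vessels the sham and intact arrays hold beyond the carotid artery; p-values measure the spread between pools. Smooth muscle markers were well expressed in every group (summed intensity 12856 to 40308 over 6 tested genes).

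Promoter sequence was read from RefSeq (build GRCr8), which held 26 of the 27 genes; Psma7 was missing. The 250 bases before the annotated start are shown for Psmb8 and Psmb9, the interferon-inducible catalytic genes that were called higher at day 4, for Psme2, a PA28 gene that carries an interferon-type motif and was called in no comparison of the main fit, and for Psmb5, the constitutive subunit that Psmb8 replaces. Capitals mark matches on either strand to the gamma-activated site (GAS, letters TTCNNNGAA), the interferon-stimulated response element (ISRE, letters GAAANNGAAA) or the antioxidant response element (ARE, letters TGACNNNGC).
Psmb8, chr20:4657032-4657281, minus strand: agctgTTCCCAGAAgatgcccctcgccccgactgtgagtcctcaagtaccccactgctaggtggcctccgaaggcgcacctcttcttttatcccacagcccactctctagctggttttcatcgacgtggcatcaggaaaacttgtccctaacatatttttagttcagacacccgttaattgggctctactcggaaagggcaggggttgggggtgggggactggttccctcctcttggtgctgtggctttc
Psmb9, chr20:4668750-4668999, plus strand: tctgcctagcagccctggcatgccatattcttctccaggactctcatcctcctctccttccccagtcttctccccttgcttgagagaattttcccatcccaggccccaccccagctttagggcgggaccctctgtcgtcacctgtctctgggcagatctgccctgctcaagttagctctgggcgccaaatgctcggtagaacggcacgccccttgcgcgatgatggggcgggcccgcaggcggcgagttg
Psme2, chr15:33052752-33053001, minus strand: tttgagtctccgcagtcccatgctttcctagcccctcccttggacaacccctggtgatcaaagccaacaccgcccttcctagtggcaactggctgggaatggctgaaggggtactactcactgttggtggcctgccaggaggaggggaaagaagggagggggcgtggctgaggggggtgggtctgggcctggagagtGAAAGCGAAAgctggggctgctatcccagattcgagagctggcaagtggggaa
Psmb5, chr15:32047380-32047629, minus strand: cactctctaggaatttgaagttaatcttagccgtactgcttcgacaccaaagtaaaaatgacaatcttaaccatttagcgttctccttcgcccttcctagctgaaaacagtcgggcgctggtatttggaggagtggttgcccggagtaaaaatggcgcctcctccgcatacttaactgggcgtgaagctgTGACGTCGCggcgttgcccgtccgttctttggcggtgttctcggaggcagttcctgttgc

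The GAS letters were present in the window of 1 of the 26 member genes, Psmb8, where they began 245 bases before the start, and in 7.67% of all 33469 RefSeq rat promoters of the same length. The ISRE letters were present in 3 members (Psma4, Psmb3 and Psme2) and in 3.41% of all promoters; in Psme2 the match began 53 bases before the start. The ARE letters were present in 4 members (Psmb2, Psmb5, Psmd1 and Psme4) and in 10.1% of all promoters. The Psmb9 window held none of the 3 motifs. Psmb9 starts 457 bases from the start of Tap1, the peptide transporter gene that lies between Psmb8 and Psmb9 and is read in the opposite direction, and the Tap1 window held an ISRE match 121 bases before its start. These matches describe the letters only.

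Psmb8 and Psmb9, the interferon-inducible catalytic subunits, were higher at day 4 in the injured left artery under gel (2.55-fold for Psmb8 and 2.65-fold for the brightest Psmb9 probe set) and under tPA (2.09-fold and 2.53-fold), and Psmb9 was also higher in the uninjured right artery under gel (2.47-fold). Psme1 and Psme2 were not called higher at day 4 in any of the 4 comparisons with sham, and Psmb5, the constitutive counterpart of Psmb8, differed from sham by -0.30 to -0.14 log2 units on its brightest probe set and by 0.18 to 0.63 on its other 2 sets, none past the test. At day 1 no member passed the test in any comparison with sham.

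Psmb8 was measured by 1 probe set, and its values are array intensities on a linear scale. At day 4 the left artery gave 1395.5, 1787.9 and 1487.6 under gel and 1346.5, 1046.9 and 1465.7 under tPA. The right artery gave 866.1, 1179.4 and 1075 under gel and 1163.2, 981.4 and 1040 under tPA, and sham at day 4 ran from 337.7 to 855.3 with a median of 680.4. The 12 day 4 arrays of operated rats therefore all lay above the 6 sham arrays of that day, although the lowest right gel array was close to the highest sham array. Intact arteries ran from 459 to 911.9 (median 793.05), so 11 of the 12 arrays also lay above every intact array and the lowest right gel array did not.

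At day 1 the Psmb8 intensity was 641.4, 461 and 608.4 in the left artery under gel and 583.7, 729.1 and 795.9 under tPA. The day 1 sham arrays gave 545.6, 425.2, 788.9 and 924.6. The right artery gave 561.4, 259.8 and 772.2 under gel and 755.1, 1469.7 and 881.5 under tPA. The day 1 groups overlapped with sham throughout, and the second right tPA array was the only one of day 1 above the highest sham array of that day; it was among 4 tPA arrays that stood apart from their groups across all genes. On the log2 scale left gel differed from sham by -0.18 (SE 0.33, limma adjusted p = 0.894) at day 1 and by 1.35 (SE 0.30, adjusted p = 0.0015) at day 4. Within the left artery under gel, Psmb8 was 2.74-fold higher at day 4 than at day 1 (log2 difference 1.46, SE 0.35, limma adjusted p = 0.0159). That call was lost without the first (adjusted p = 0.0514) or second (0.0839) left gel array of day 4, or without the second of day 1 (0.0658).

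Psmb9 was measured by a brighter probe set (D10757_g_at) and a dimmer one (D10757_at) that target the same transcript. The brighter set read 1827.6, 2581.6 and 1531.9 in left gel and 1847.8, 1407.4 and 2420.9 in left tPA at day 4. It read 1656.5, 1932.8 and 1833.2 in right gel and 1801, 1819.5 and 2129.4 in right tPA, against 451.3 to 1121.2 (median 733.85) in sham at day 4. No operated array of day 4 overlapped with sham, nor with intact arteries, which ran from 576.2 to 1234.7 (median 1097). The dimmer set gave 297.1 to 767.8 over the 12 operated arrays, 60.2 to 154 in sham at day 4 and 64.5 to 313.5 in intact arteries, so it separated operated rats from sham but not from intact rats.

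Day 1 values of Psmb9 were scattered. The brighter set gave 1719.9, 389.6 and 1786.8 in left gel, 572.4, 1282 and 875.4 in left tPA, and 1077.9, 1099.9, 1479.9 and 1328.9 in sham. The second left gel array was the lowest of the 40 for this probe set, whereas the other two lay above all 4 sham arrays. With that array the difference from sham was -0.22 and without it 0.50, so the day 1 direction rests on 1 array and neither value passed the test. In the right artery the brighter set gave 506.8, 1302.6 and 1581.9 under gel and 1276.6, 1864.7 and 1301.8 under tPA at day 1.

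**Figure D1:**
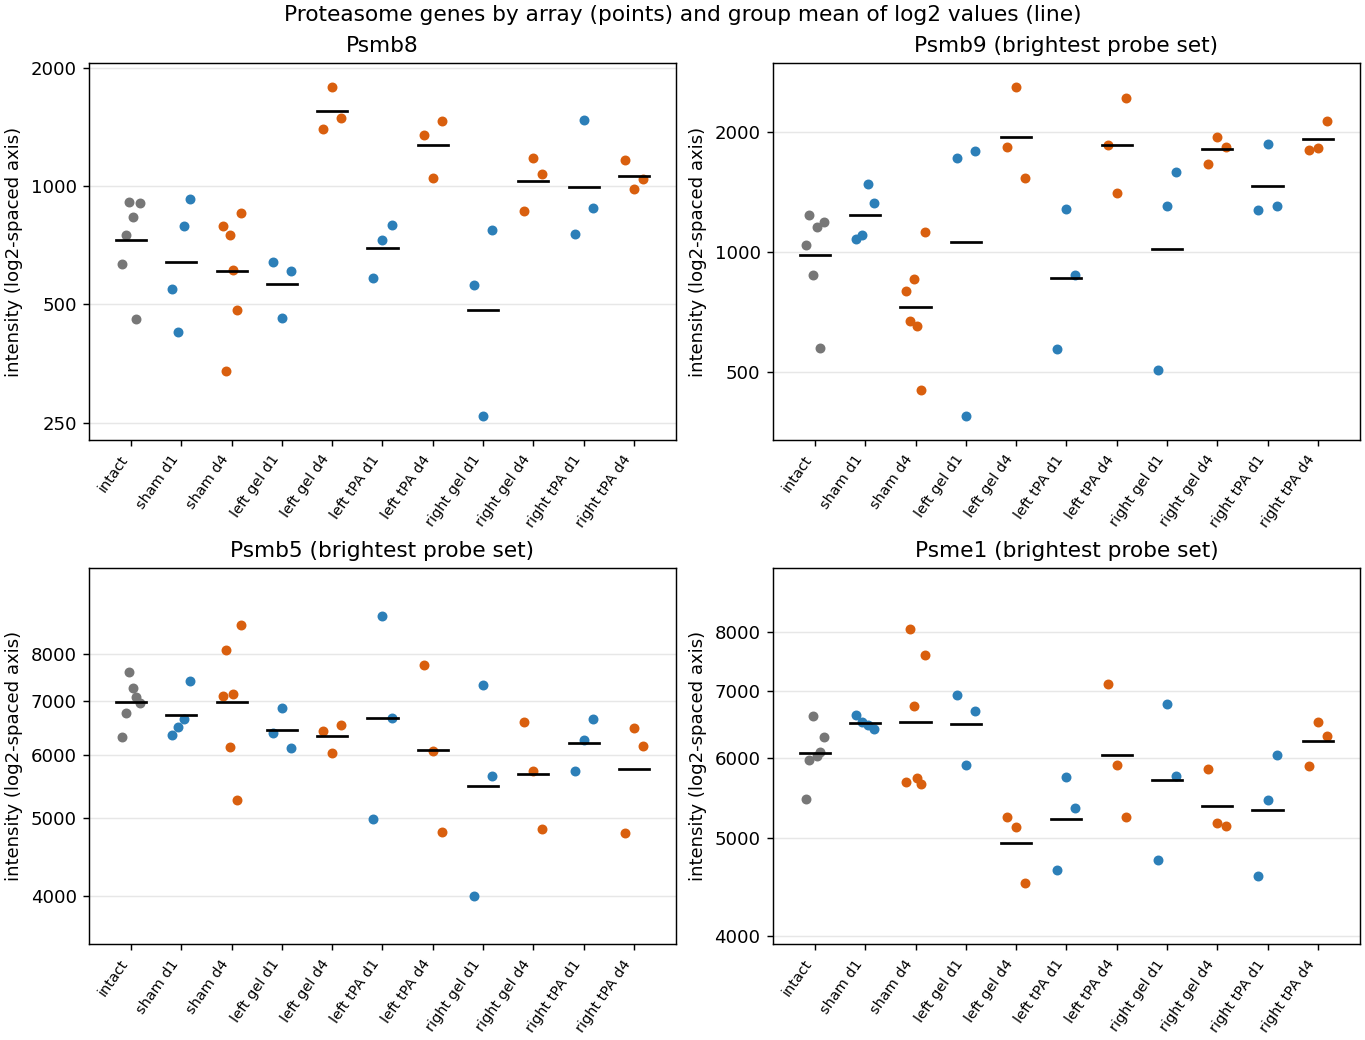
Intensity of Psmb8, Psmb9, Psmb5 and Psme1 (brightest probe set of each) on a log2-spaced axis, 1 point per array in the 11 groups (day 1 blue, day 4 orange, intact grey), with a line at the mean of the log2 values. The 12 orange points of the operated groups sit at 866.1 or above for Psmb8 and 1407.4 or above for Psmb9, over all 6 sham day 4 points, whereas Psmb5 and Psme1 overlap across most groups.

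Left gel against sham at day 4 was the comparison with the most members past the test. Of 44 tested probe sets 8 were higher and 1 lower, where 19.2% of all 5827 probe sets tested were called (11.3% higher and 7.89% lower), so the members' share was near that of the array as a whole. The median log2 difference was 0.27 over the members and 0.02 over all probe sets. The 3 probe sets of Psmb8 and Psmb9 were all called: Psmb9 rose by 2.42 (SE 0.47, limma adjusted p = 0.000374) on the dimmer and 1.41 (SE 0.37, adjusted p = 0.00614) on the brighter set.

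Among constitutive subunits, the alpha ring of the core held 4 of the calls in the same comparison. Psma4 gave 2481.4, 2344.3 and 1406.4 in left gel against 593.4 to 1333.1 (median 1111.8) in sham, 1.95-fold higher (log2 0.96, SE 0.27, limma adjusted p = 0.0106). Psma1 gave 1550.2, 1852.2 and 1369.1 against 485.9 to 1207.8 (median 846.95), 1.91-fold higher (log2 0.93, SE 0.32, adjusted p = 0.0369). For both genes the 3 left gel arrays lay above all 6 sham arrays, and how many of all probe sets did so was not counted. In left gel at day 1 Psma4 was already at 1798.7, 1727.6 and 1597.2, above all 4 sham arrays (769.2 to 1110.5), with a log2 difference of 0.77 that did not pass (adjusted p = 0.169). The day 4 call of Psma4 was lost without the first or second left gel array (0.81 and 0.86). That of Psma1 was lost without any 1 of the 3, without sham array 2 or 6, and with quantile normalization (0.80, adjusted p = 0.0719).

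Psma2, another alpha subunit, had 3 probe sets that differed in size of change. The dimmest gave 647.1, 810.4 and 574.9 in left gel at day 4 against 73.1 to 299.6 (median 233.5) in sham, 3.60-fold higher (limma adjusted p = 0.00148). The middle one gave 2510, 2160.6 and 1890.4 against 512.4 to 1216 (median 1168.9), 2.27-fold higher (adjusted p = 0.00306). The brightest gave 7308.4, 6899.6 and 5736.7 against 3832.6 to 5505.5 (median 4807.05), 1.40-fold, which missed the threshold (adjusted p = 0.0825). The size of the difference fell as the intensity of the probe set rose.

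The beta ring had no call upward at day 4 in left gel outside the immunoproteasome. Psmb4 was called lower on 1 of its 3 probe sets (2341.6, 2716 and 2698.5 against 3469.5 to 5177.4; log2 -0.64, limma adjusted p = 0.0361), while its other sets differed by 0.05 and -0.17; the call was lost without any 1 of the 3 left gel arrays or sham array 2 or 6, with quantile normalization (-0.54, adjusted p = 0.0933), with only the compared groups fitted (adjusted p = 0.0569) and against intact arteries (adjusted p = 0.109). Psmb5 read 6427.6, 6035.8 and 6540.4 on its brightest set against 5276.4 to 8693 (median 7122.05) in sham, with full overlap and a log2 difference of -0.14 (95% interval -0.54 to 0.26); its other 2 sets differed by 0.41 and 0.42, which did not pass either. Psmb1, Psmb2 and Psmb3 differed by 0.10 to 0.49, none past the threshold.

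In the 19S cap, 1 of 16 probe sets was called: Psmd10, also known as gankyrin, a chaperone of cap assembly, gave 209, 217.5 and 153.7 against 63.7 to 130.6 (median 114) in sham and was 1.84-fold higher (limma adjusted p = 0.0281). The call was lost without the first or second left gel array or sham array 2, and with quantile normalization (0.79, adjusted p = 0.119), and its mean intensity over the arrays, 129, was the lowest among the brightest sets of the 27 genes. The 6 probe sets of the ATPases Psmc1 to Psmc5 had a median difference of 0 and ran from -0.11 to 0.55. The non-ATPase subunits Psmd1, Psmd2, Psmd4, Psmd11 and Psmd13 ran from -0.27 to 0.73. Psme4 differed by 0.73 (adjusted p = 0.331).

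The PA28 activator genes did not follow Psmb8 and Psmb9. Psme1 read 5245.7, 5131.6 and 4511.8 in left gel at day 4 against 5657 to 8061.3 (median 6250.25) in sham on its brightest set, so all 3 arrays lay below sham (log2 -0.40, SE 0.16), but the limma adjusted p was 0.0738. Of 21 alternatives, 4 called it lower (adjusted p down to 0.0196), namely one median for every array, no filter, the trend and robust variance model and array weights, and the sign was lost with quantile normalization (0.01). Psme2 read 321.8, 406.9 and 453.7 against 270.7 to 460.5 (median 373.3), with full overlap and a log2 difference of 0.06 (95% interval -0.45 to 0.58). In right gel at day 4 the dimmer Psme1 set was called lower (2307.4, 1877.3 and 1498.9 against 2390.6 to 6530; log2 -1.12, limma adjusted p = 0.0457), while the brighter set differed by -0.28 (adjusted p = 0.297). The lower call was lost without any 1 of the 3 right gel arrays, or without sham array 1, 2, 5 or 6.

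**Figure D2:**
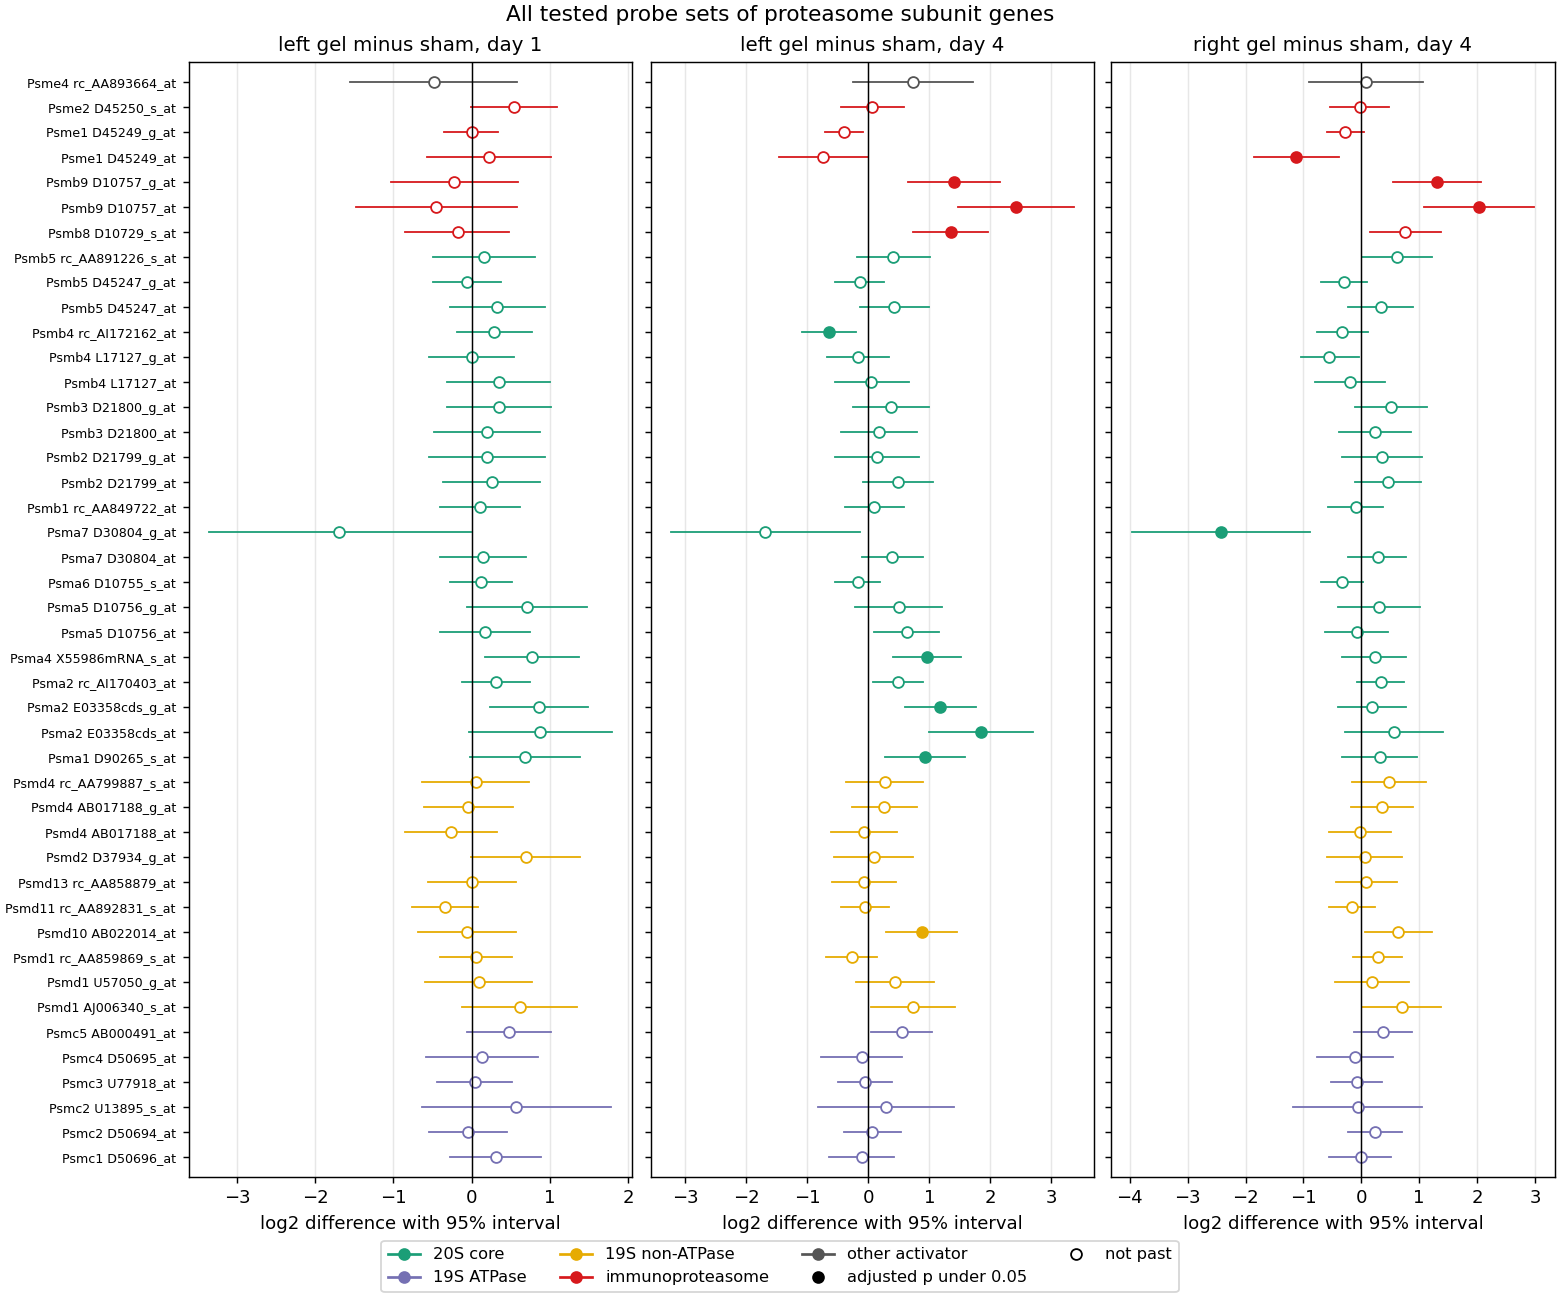
Log2 difference from sham with its 95% interval for each of the 44 tested probe sets, in left gel at day 1, left gel at day 4 and right gel at day 4; colour gives the class and filled points have a limma adjusted p under 0.05. No point is filled at day 1; at day 4 the filled points include both Psmb9 probe sets in either artery (2.42 and 1.41 on the left, 2.04 and 1.31 on the right).

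The left gel calls of day 4 depended on single arrays to different degrees. Psmb8, the dimmer Psmb9 set and both dimmer Psma2 sets were called whichever of the 9 arrays was left out, and the brighter Psmb9 set was lost without the second left gel array (1.20, adjusted p = 0.0589). Without the second left gel array 4 members were called in place of 9, and without the first 5. With the 6 intact arrays in place of sham, an alternative chosen after seeing the data, 4 members were called, all higher: Psmb8 (log2 1.09, adjusted p = 0.0117), both dimmer Psma2 sets (1.36 and 0.87) and Psma4 (0.94). Psmb9 was then at 1.31 and 0.98 with adjusted p = 0.0519 and 0.0689. Sham at day 4 was itself below intact arteries for the dimmer Psmb9 set by 1.11 log2 units (SE 0.38), which did not pass (limma adjusted p = 0.267).

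Under tPA, the left artery at day 4 had 3 members higher and 1 lower than sham, where 5.87% of all probe sets were called (3.95% higher and 1.92% lower). The 3 were both Psmb9 sets, which rose by 2.05 (SE 0.47, limma adjusted p = 0.0135) and 1.34 (SE 0.37, adjusted p = 0.0277), and Psmb8, which rose by 1.07 (SE 0.30, adjusted p = 0.0328). Psmb5 differed by -0.20 (95% interval -0.59 to 0.20) on its brightest set and by 0.18 and 0.25 on the others, Psme1 by -0.11 and Psme2 by 0.24, none past the threshold; Psmb5 and Psme1 with quantile normalization were at 0.32 and 0.40, and the call of Psmb8 was lost (0.91, adjusted p = 0.0601). No member was called without the second or the third left tPA array, or against intact arteries. Psmb8 was also lost without sham array 2 or 5, and the brighter Psmb9 set without sham array 5.

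Left tPA and left gel were compared directly at both days, and no member was called at either, against 0.12% of all probe sets each time. At day 4 Psmb8 differed by -0.28 (95% interval -0.99 to 0.43) and the brighter Psmb9 set by -0.07 (-0.94 to 0.80). The intervals therefore still allow a change of nearly 1 log2 unit. The smallest unadjusted p at day 4 belonged to Psma4 (log2 -0.74, limma adjusted p = 0.527) and the dimmest Psma2 set (-1.07, adjusted p = 0.562). At day 1 Psmd11 (0.69, adjusted p = 0.163) and Psmd4 (0.75 on its dimmest set, adjusted p = 0.292) had the smallest values.

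The right artery was not touched by the balloon, and 2 members were higher and 2 lower than sham at day 4 under gel, where 8.82% of all probe sets were called (6.23% higher and 2.59% lower). Psmb9 rose by 2.04 (SE 0.47, limma adjusted p = 0.00461) and 1.31 (SE 0.37, adjusted p = 0.0217); Psmb8 was 0.76 higher (SE 0.30) and did not pass (adjusted p = 0.118). The dimmer Psmb9 set was called whichever array was left out, and the brighter one was lost without any 1 of the 3 right gel arrays or sham array 5. Psmb5 differed by -0.30 on its brightest set and by 0.34 and 0.61 on the others, and Psme2 by -0.03, none past the threshold. Left and right gel at day 4 differed by 0.59 for Psmb8 (95% interval -0.13 to 1.30) and by 0.10 for the brighter Psmb9 set (-0.77 to 0.97), and no member was called between them, against 5.10% of all probe sets. Against intact arteries no member was called in right gel (Psmb9 at 0.93 and 0.88).

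In the right artery under tPA at day 4, Psmb9 rose by 1.90 (SE 0.47, limma adjusted p = 0.0438) on the dimmer set and was 1.39 higher (adjusted p = 0.0562) on the brighter one, while Psmb8 was 0.80 higher (adjusted p = 0.162). This was 1 member higher and 1 lower, where 0.91% of all probe sets were called (0.429% higher and 0.481% lower). The Psmb9 call was lost without any 1 of the 3 right tPA arrays or sham array 1, 2, 3 or 5, and no member was called without the first right tPA array, which was among the 4 that stood apart, or against intact arteries. Psmb5, Psme1 and Psme2 were at -0.28, -0.06 and 0.19 on their brightest sets and the other Psmb5 sets at 0.52 and 0.63, none past the threshold. All 10 probe sets of the 19S non-ATPase subunits had a positive difference, from 0.18 to 1.08, and none was called. Of the 44 member probe sets 33 were positive, with a median of 0.4 against -0.01 over all probe sets. The centred mean of the 19S genes, ATPases included, was 0.46, 0.07 and 0.01 in right tPA arrays 1, 2 and 3. In left tPA at day 1 all 10 were positive too, where 58.8% of all probe sets were. Psmd1 was the largest in right tPA at day 4, on its dimmest tested set (limma adjusted p = 0.0891).

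The 4 day 4 comparisons share the same 6 sham arrays, so their agreement for Psmb8 and Psmb9 partly repeats 1 set of control values. Read without a test, 3 of the 44 member probe sets had all 12 operated day 4 arrays above all 6 sham arrays, where 0.841% of all probe sets did, and these were the probe sets of Psmb8 and Psmb9. A single member set, of Psma7, had all 12 below, where 0.669% of all probe sets did.

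That Psma7 probe set, D30804_g_at, disagreed with the other set of the same gene, an alpha subunit. It read 2385.1, 1269.4 and 3205.8 in left gel, 3229.2, 1115.3 and 299.1 in left tPA, 3028.7, 1035.6 and 667.9 in right gel and 153.8, 692.2 and 2615.8 in right tPA at day 4, against 3753.3 to 9513.1 (median 7477.95) in sham. It was called lower in left tPA (log2 -2.74), right gel (-2.42) and right tPA (-3.39), with limma adjusted p of 0.0278, 0.0403 and 0.0219, and not in left gel (-1.69, adjusted p = 0.124). Left gel at day 1 was not called either, at the same difference from sham (-1.69). Its arrays there read 1813.5, 5521.5 and 304.2, against 3465.9 to 6171.3 in sham at day 1. The calls were lost without left tPA array 2 or 3, right gel array 2 or 3 and right tPA array 1, without 1, 5 and 1 of the 6 sham arrays respectively, and against intact arteries. The other set, D30804_at, was higher by 0.39 in left gel, 0.36 in left tPA, 0.28 in right gel and 0.40 in right tPA, none past the threshold. Over the 40 arrays the first set ran from 153.8 to 10218.1 and the second from 1009.4 to 3017.4, so a direction for Psma7 cannot be given from these arrays.

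**Figure D3:**
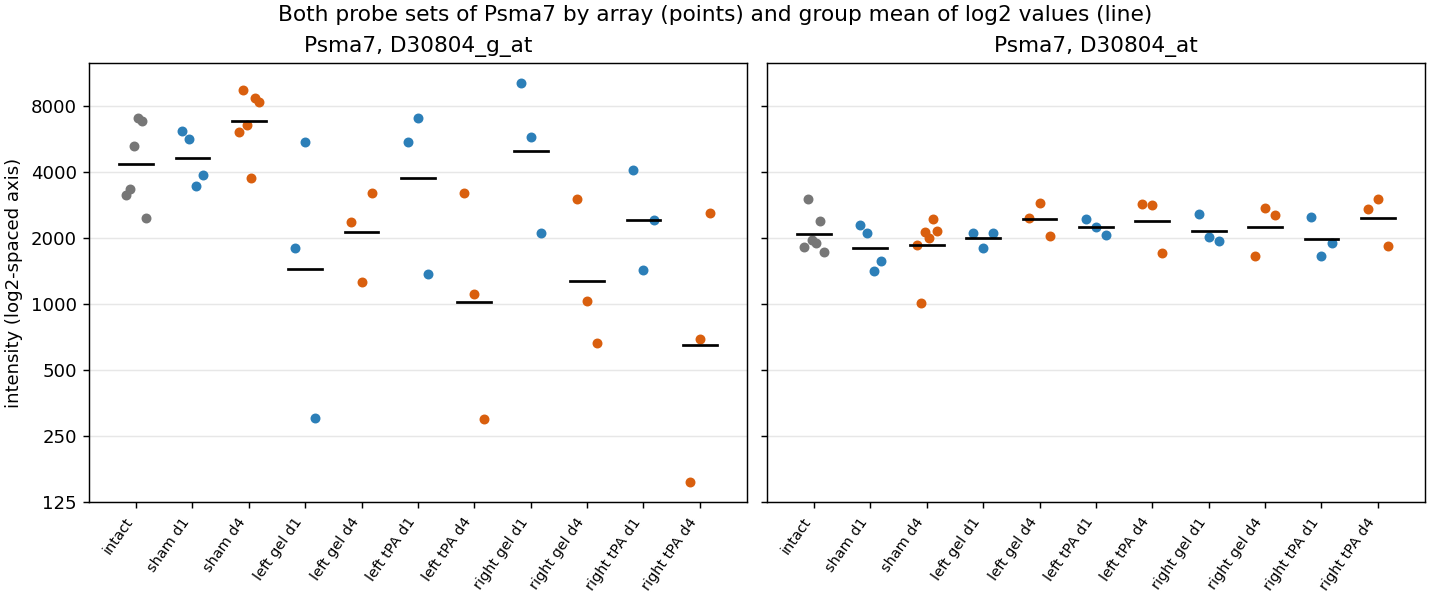
Intensity of both Psma7 probe sets on a shared log2-spaced axis, 1 point per array in the 11 groups, with a line at the mean of the log2 values. D30804_g_at spans 153.8 to 10218.1 and has its lowest group mean in right tPA at day 4, whereas D30804_at stays between 1009.4 and 3017.4. Left gel at day 1 also held a low D30804_g_at array, at 304.2.

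At day 1 no member was called in left gel (3.12% of all probe sets were called), left tPA (4.43%), right gel (0.927%) or right tPA (0.172%) against sham. An unadjusted limma p under 0.05 was found for 3 of 44 in left gel, where 853 of all 5827 probe sets had one. In left tPA it was found for 2 of 44, where 1277 of all 5827 had one. In left gel the members nearest the threshold were the middle Psma2 set (log2 0.86, limma adjusted p = 0.137) and Psma4. In left tPA they were Psma5 (0.72 on its dimmer set, adjusted p = 0.130) and Psmd4 (0.80, adjusted p = 0.158), and in right tPA Psma5 (0.85) and Psma2 (0.91). In right gel they were the ATPases Psmc3 (-0.71, adjusted p = 0.198) and Psmc2 (1.16 on its dim set). Psmb8 and Psmb9 differed from sham by -0.18 and -0.22 in left gel, and Psme2 by 0.54 (adjusted p = 0.357). Of 18 alternatives, 1 called Psme2 higher in left gel (limma adjusted p = 0.00865). In left tPA 1 of 18 called Psme1 lower (adjusted p = 0.0441, against 0.273 in the main fit).

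Sham against intact arteries gave no called member at day 1 (0.944% of all probe sets) or day 4 (0.378%). For Psmb8 the difference was -0.19 at day 1 and -0.26 at day 4, and for the brighter Psmb9 set 0.33 and -0.43, none past the threshold. Psmb5 differed by -0.06 and 0.

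The difference between the injured artery and sham was itself compared between days. Under gel it was 2.87 log2 units larger at day 4 than at day 1 for the dimmer Psmb9 set (SE 0.69, limma adjusted p = 0.0146), the single member called, where 2.42% of all probe sets were (1.63% higher). Without the second left gel array of day 1 the value was 1.96 (adjusted p = 0.120), and without the second of day 4 it was 2.54 (0.0661). Psmb8 gave 1.53 (adjusted p = 0.0575) and the brighter Psmb9 set 1.62 (0.112). The control also differed between days: the dimmer Psmb9 set read 215.8 to 238.9 in sham at day 1 and 60.2 to 154 at day 4. Within left gel the dimmer Psmb9 set was 1.54 log2 units higher at day 4 than at day 1, and the brighter 0.86 (limma adjusted p = 0.273). Neither passed the test. Under tPA no member was called (1.36% of all probe sets): Psmb9 gave 2.44 (adjusted p = 0.062) and 1.86 (0.0698), and Psmb8 gave 0.95 (0.261). Between day 1 and day 4 within left gel, 1 member was higher (Psmb8) and 1 lower (the same Psmb4 set as above, log2 -0.91, adjusted p = 0.0408), where 3.21% of all probe sets were called (2.09% higher and 1.12% lower), and the Psmb4 call was lost without any single left gel array of day 4 or day 1. Psme1 (-0.39) and Psme2 (-0.41) were not called there. For each, 1 of 17 alternatives called it lower (limma adjusted p = 0.00577 and 0.0287).

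Class averages were taken with each gene's brightest set centred on its mean over the 40 arrays. Psmb8 and Psmb9, a pair chosen after their values were seen, moved over a wider range than the other classes. At day 4 the pair averaged 0.83 ± 0.27 (SD, n = 3) in left gel, 0.65 ± 0.32 in left tPA, 0.49 ± 0.17 in right gel and 0.55 ± 0.08 in right tPA. It was -0.55 ± 0.44 (n = 6) in sham at day 4, -0.13 ± 0.35 (n = 4) in sham at day 1 and -0.20 ± 0.37 (n = 6) in intact arteries. The 22 constitutive genes averaged between -0.11 in right gel at day 1 and 0.19 in left tPA at day 1, and Psme1 with Psme2 between -0.15 in left gel at day 4 and 0.25 in left gel at day 1. A mean of few genes can move further than a mean of 22. The 4 immunoproteasome genes averaged 0.34 in left gel, 0.37 in left tPA, 0.17 in right gel and 0.31 in right tPA at day 4. In sham at day 4 they averaged -0.27. Their mean minus the constitutive mean was 0.32, 0.42, 0.26 and 0.24 in those groups and -0.17 in sham at day 4. The constitutive mean includes the Psma7 set D30804_g_at, whose direction cannot be given. That set differed from sham by -1.69 to -3.39 at day 4, which lowers the constitutive mean in the operated groups and widens this gap. The mean without Psma7 was not computed. In order of the Psmb8 group mean (log2), left gel at day 4 (10.6 ± 0.19) was followed by left tPA at day 4 (10.31 ± 0.25), right tPA (10.05 ± 0.12) and right gel (10.01 ± 0.23) at day 4 and right tPA at day 1 (9.96 ± 0.50); each neighbouring pair in that order overlapped in its arrays. Below them intact arteries stood at 9.51 ± 0.38 and right gel at day 1 was the lowest at 8.92 ± 0.81.

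**Figure D4:**
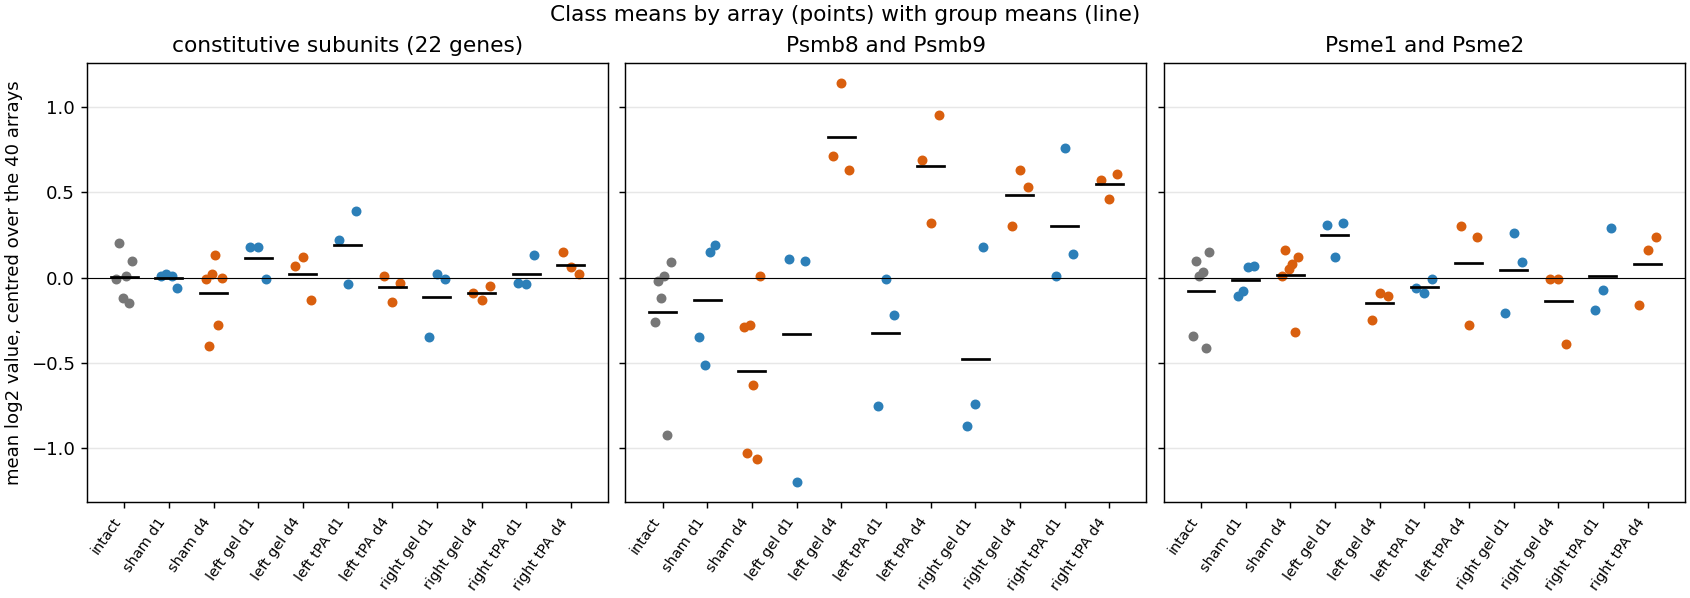
Mean log2 value by array (points) and group (line), each gene centred over the 40 arrays, for the 22 constitutive genes, for Psmb8 with Psmb9 and for Psme1 with Psme2. The middle panel rises to group means of 0.49 to 0.83 in the 4 operated groups of day 4, while the constitutive panel stays between -0.11 and 0.19. Psmb8 and Psmb9 were paired after their values were seen. The constitutive mean includes the Psma7 set D30804_g_at, which disagrees with the other Psma7 set.

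On their brightest sets most members had a narrower range of group means than the median probe set, and their residual SD tended to be smaller too. The range of the 11 group means had a median of 0.76 log2 units over the members' brightest sets and 1.15 over all probe sets tested, and the median residual SD was 0.35 and 0.50. Psmb5 had the smallest range (0.35), below which lay 0.326% of all probe sets, followed by Psme1 (0.40) and Psmc2 (0.50). The widest ranges were those of Psma7 (3.39), whose sets disagree, Psmb8 (1.68), Psme4 (1.45), Psmb9 (1.41) and Psma5 (1.14).

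Genes with the most similar pattern were ranked by Pearson's r over the 11 group means among 3519 other genes, as a description. For the mean of the 4 immunoproteasome genes they were Tmbim6 (0.948), Slc5a2 (0.934), Sart3 (0.931), Pelo (0.924), Lgals3bp (0.913), Ankrd24 (0.908), Ankfy1 (0.902) and Mydgf (0.894). Psmb8 and Psmb9 alone were a pair chosen after their values were seen. For them the genes were Rab8b (0.928), Tmbim6 (0.926), Sart3 (0.91), Ankfy1 (0.907), Ankrd24 (0.906), C1qb (0.897), Slc5a2 (0.894) and Fxyd2 (0.891). For the constitutive mean, which includes the Psma7 set D30804_g_at, they were Kti12 (0.889), Kifc3 (0.867), Thop1 (0.863), Ube2g2 (0.854), Txnrd1 (0.851), Il1a (0.844), Csrp3 (0.828) and Tufm (0.813). The 11 points share arrays with every comparison above, and no p is given.

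The MHC class I pathway, which receives immunoproteasome products, was followed through 13 tested genes. In left gel at day 4, 1 was higher and 1 lower than sham: the class I heavy chain gene RT1-A3 rose by 1.96 (SE 0.52, limma adjusted p = 0.00705) and B2m, the class I light chain, fell by 0.79 on the log2 scale (adjusted p = 0.0261). Of all probe sets, 11.3% were called higher and 7.89% lower in that comparison. RT1-N3 (0.66, adjusted p = 0.0979) and Tap1 (0.56, adjusted p = 0.142) did not pass. B2m also fell in left tPA (-0.93, adjusted p = 0.0271) and right gel (-0.98, adjusted p = 0.0125), and was at -0.91 in right tPA (adjusted p = 0.0608). The list's median difference was 0.33 in left gel, 0 in left tPA, 0.16 in right gel and -0.03 in right tPA. RT1 genes are close paralogues whose probe sets may share target sequence, and 28 RefSeq pseudogenes are named after 10 of the member genes; the part of either in these values was not tested.

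Of 16 tested interferon response genes, 4 were higher and none lower in left gel at day 4: the kinase Jak2 (1.17, limma adjusted p = 0.00163), the GTPase Gbp2 (1.85, adjusted p = 0.0113) and the transcription factors Irf8 (0.86, adjusted p = 0.032) and Irf7 (1.68, adjusted p = 0.0338). There 11.3% of all probe sets were called higher and 7.89% lower. None was called in left tPA or right gel, where Irf7 was at 1.66 (adjusted p = 0.0717) and 1.16 (0.217), and in right tPA Irf7 was called (2.30, adjusted p = 0.0438). Of 15 genes of ubiquitin conjugation and proteasome assembly, 2 were higher and 1 lower in left gel: the conjugating enzyme Ube2a rose by 1.71 (adjusted p = 0.000484), the neuronal ubiquitin hydrolase Uchl1 rose by 1.71 (adjusted p = 0.0115), and the ubiquitin-like modifier Nedd8 fell by 0.77 on the log2 scale (adjusted p = 0.0452). That share was near the 19.2% of all probe sets called in left gel. Ube2a and Nedd8 were called in the same directions in left tPA (1.38 and -1.20), right gel (1.27 and -0.99) and right tPA (1.43 and -1.15). Pomp, which matures the core, was at -0.42 to -0.63 in those 3 groups and did not pass.

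Markers of other cells also differed between groups, at day 4 and in part at day 1. In left gel at day 4, 6 of 11 leukocyte genes and 6 of 8 macrophage genes were higher than sham, among them Ptprc (4.66) and Aif1 (3.83); the summed leukocyte intensity was 6086 to 7316 against 1576 to 2061 in sham, and that of the macrophage genes 16285 to 19812 against 2908 to 5624. In right gel at day 4 none of 11 and 2 of 8 were called, with sums of 2572 to 3902 and 8806 to 14384, and in left tPA 3 of 11 and 4 of 8, with 2140 to 9110 and 6027 to 13907. In right tPA the counts were 0 of 11 and 1 of 8, with sums of 1699 to 6868 and 7396 to 17899. Of all probe sets, 11.3% were called higher in left gel, 6.23% in right gel, 3.95% in left tPA and 0.429% in right tPA at day 4. At day 1 the summed macrophage intensity was 13244 to 14918 in left gel, 11313 to 21020 in left tPA and 13217 to 16370 in right tPA. It was 3807 to 11187 in right gel and 7526 to 8523 in sham at that day. Of the 8 macrophage genes 1 was called higher in left gel and 1 in left tPA at that day, and of the 11 leukocyte genes none in any of the 4 comparisons with sham. Over all 5827 probe sets, 97 were called higher in left gel and 94 in left tPA at day 1. No gene of either list was at the floor on all arrays of a group. In left gel at day 1, 5 of 11 skeletal muscle genes were higher than sham, with a summed intensity of 22891 to 41667 against 3153 to 4407. In left gel at day 4 that sum was 2294 to 3056, and 3 of 11 were lower than at day 1, where 1.12% of all probe sets were. Intact arteries ran from 3111 to 27833. The left gel arrays of day 1 enter the comparisons between days, and the part of skeletal muscle there was not tested. At day 4, smooth muscle genes fell in 3 of 6 cases in left gel, where 7.89% of all probe sets were called lower. In right gel 7 of 9 nerve genes were higher and 1 lower, where 6.23% of all probe sets were higher and 2.59% lower. Uchl1 rose by 3.90 in right gel. The 3' to 5' signal ratio of actin, a measure of RNA integrity, ran from 7.377 to 8.093 in left gel, from 11.68 to 13.61 in right gel and from 11.83 to 23.69 in sham at day 4. At the same day the ratio ran from 11.02 to 16.02 in left tPA and from 4.951 to 15.99 in right tPA. At day 1 it ran from 13.36 to 19.39 in left gel, from 2.803 to 17.81 in left tPA and from 16.26 to 21.11 in sham. Left gel therefore differed between days in this ratio too, and its part in the comparisons between days was not tested. The same ratio of GAPDH ran from 0.2433 to 11.44 over the 40 arrays. Psmb8 and Psmb9 are known to be abundant in leukocytes, and in a pooled vessel a change in the number of such cells and a change of expression per cell cannot be told apart; the part of these markers in the proteasome values was not tested.

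Across the arrays, the authors' scaling brought the trimmed mean intensity to between 499.4 and 502, and the share of probe sets at the floor was 6.57% to 25.2%. The lowest share belonged to a right gel array of day 1. Without the 4 tPA arrays that stood apart, 0 members in place of 2 were called in right tPA at day 4, 6 in place of 4 in left tPA at day 4 and 2 in place of 0 in left tPA at day 1. The number of arrays per group, mostly 3, limits the precision of each value.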

How the data were processed

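Pooled RNA from rat carotid arteries was hybridised to Affymetrix U34A arrays. The deposited series matrix gives 1 linear intensity per probe set and array, which the authors had scaled to a near-equal trimmed mean (2% trimmed at each end in the check made here); the summary algorithm is not given in the sources used here. Genes were named from GEO's platform annotation, which can be old. Values below 23.3 (the 20th percentile) were raised to it, log2 was taken, and the lowest 33.3% of probe sets by mean were left out, leaving 5827. All 40 arrays were fitted with 11 group means in limma 3.58.1 (R 4.3.3; lmFit, eBayes), with Benjamini-Hochberg adjustment over 5827 probe sets and a threshold of 0.05, in 16 comparisons. Checks on simulated data preceded the fit. The brightest probe set stands for a gene; the immunoproteasome genes and Psmb5 are named in each main comparison, with up to 6 called members per direction, or the 2 with the smallest p where none passed, up to 4 genes of each related list and the 8 most similar genes. The members and lists were chosen with earlier results of these data known. Alternatives changed the normalization, floor, filter, variance model, arrays and controls.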

Additional observations from a re-analysis of the deposited data

Results flagged for a closer look

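The larger Psmb9 difference under gel at day 4 than at day 1 (2.87 log2 units on the dimmer probe set, limma adjusted p = 0.0146) stood out because the injury effect differed between days. Sham itself was lower at day 4 on that set (60.2 to 154, against 215.8 to 238.9 at day 1). Within left gel the set rose by 1.54, which was not called.

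Single arrays lay far from the rest of their group in 8 of 90 checks on the brightest probe set of each member and 3 class means in the sham and intact groups, where chance flags about 1 in 20. In sham at day 4, array 2 was lowest for Psma4 (593.4, others 1060.5 to 1333.1), Psmd10 (63.7, others 100.3 to 130.6) and Psmd13 (432.7, others 789.5 to 1120.7), and array 4 was highest for Psmd4 (1806.8, others 1207.4 to 1382.9). In sham at day 1, array 4 was lowest for Psma4 (769.2, others 1062.1 to 1110.5) and for the constitutive mean (-0.06, others 0.01 to 0.02). In intact arteries, array 2 was highest for Psmd11 (2186.3, others 1887.8 to 1971.6) and array 5 lowest for the mean of Psmb8 and Psmb9 (-0.92, others -0.26 to 0.09). Without sham day 4 array 2, Psmd10 was at 0.73 in left gel (adjusted p = 0.0716) and no longer passed.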

How the results depend on the processing

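Psmb8 in left gel at day 4 kept its direction and call under all 21 alternatives (log2 1.09 to 1.45, adjusted p 0.000303 to 0.0162). In left gel at day 4, 9 members were called, and 7 with quantile normalization (Psmd10, Psma1 and Psmb4 were lost), 8 with one median (Psmd10 and Psma1 lost), 9 with only the groups compared (Psmb4 lost) and 7 with the replicate block (Psma1 and Psmb4 lost). Other counts of called members moved by over 1.5 times as follows. With array weights they were 9 in left gel at day 1, 8 in left tPA at day 4, 1 and 3 for left tPA against left gel at day 1 and day 4, 0 in right tPA at day 4, 4 for left against right gel, 14 for left gel day 4 against day 1, 1 for each sham against intact, and 5 under gel and 1 under tPA for the injury effect between days. Fitting only the groups compared gave 0 in left tPA and right tPA at day 4, 2 for left against right gel, and 2 and 1 for the injury effects. One median for every array gave 1 in left tPA and 1 in right gel at day 1 and 2 for the tPA injury effect; quantile normalization gave 1 for left against right gel; no filter gave 2 in right gel and 1 in right tPA at day 4; and the higher floor gave 2 and 1 for the injury effects. Intact controls gave 4, 0, 0 and 0 in left gel, left tPA, right gel and right tPA at day 4. Without the 4 tPA arrays the counts were 2 in left tPA at day 1, 1 for left tPA against left gel at day 1, 0 in right tPA at day 4, and 2 and 1 for the injury effects; without the right gel array the gel effect gave 2. Leaving out each array gave 4 to 9 in left gel, 0 to 6 in left tPA, 1 to 4 in right gel and 0 to 2 in right tPA at day 4, 0 to 1 in left tPA at day 1 and in left gel day 4 against day 1, 0 to 2 and 0 to 1 for the injury effects, and 0 to 0 elsewhere.

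With the replicate number as a block, 1 member was called in left tPA, 1 in right gel and 0 in right tPA at day 4, and 1 in left gel day 4 against day 1. The numbers were not taken to pair arrays, since the labels state no shared rats; same-numbered deviations correlated at -0.16 to -0.01 in left gel at day 4, and every pair passed 0.1 in right gel at day 1 alone (0.12 to 0.28).

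With quantile normalization Psmb5 turned to 0.29, 0.32, 0.29 and 0.22 in left gel, left tPA, right gel and right tPA at day 4, to 0.17 in right tPA at day 1 and to 0.26 and 0.36 for the injury effects; Psme1 turned to 0.01, 0.40, 0.30 and 0.46 in the same 4 day 4 groups and to -0.14 in sham day 4 against intact. Psme2 turned to -0.04 in left tPA at day 1 with one median, and with array weights to -0.30 in left tPA at day 4 and -0.19 against left gel; leaving out single arrays gave -0.01 to 0.59 in left tPA at day 4. Psmb9 in left gel at day 1 was 0.46 with array weights and -0.59 to 0.50 with single arrays left out; in right gel at day 1 the latter gave -0.60 to 0.22 for Psmb9 and -0.75 to 0.04 for Psmb8. None of these values passed the test, and the cause was not tested. With quantile normalization and one median the median of all probe sets in left gel at day 4 was -0.07 and -0.08, against 0.02.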
